A study of Mus musculus with 22 samples.

Results

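The integrated stress response genes described here are 10 genes, Atf4, Ddit3, Atf5, Trib3, Ppp1r15a, Chac1, Asns, Phgdh, Psat1 and Shmt2, out of 22379 genes tested. They were chosen by name, through the RefSeq accession printed with each array feature, and 13 array features matched them. Atf4, Phgdh and Psat1 had 2 features each and the other genes 1, and every feature was well above background on all 22 arrays. The feature with the highest mean signal stands for its gene, and the other is given beside it.

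Cultures of BMDM (bone marrow-derived macrophages, differentiated from marrow cells with the growth factor M-CSF) came from wild-type mice (wt), mice deficient in the kinase MK2 (MK2-/-) and mice deficient in both MK2 and MK3 (MK2/3-/-). MK2 and MK3 are kinases that the stress kinase p38 activates. The cultures were kept for 360 min with 100 ng/ml of lipopolysaccharide (LPS), a cell wall component of Gram-negative bacteria, or with medium. All mice were labelled as male C57BL/6, aged 12 to 13 weeks for wt, 10 to 13 weeks for MK2-/- and 11 to 14 weeks for MK2/3-/-. The knockouts are germline deletions, so the whole animal and every cell type of the culture lacks the kinase. LPS and medium were represented by 3 and 4 arrays in wt, 4 and 4 in MK2-/- and 4 and 3 in MK2/3-/-.

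The integrated stress response is a pathway in which 4 kinases, each sensing another stress, phosphorylate the translation initiation factor eIF2. Bulk translation then falls while translation of a few mRNAs, among them that of the transcription factor ATF4, rises. ATF4 switches on genes of amino acid synthesis, amino acid import and tRNA charging, together with factors that shape or end the response. In macrophages the pathway is known as a link between nutrient supply, unfolded proteins and the output of cytokines. ATF4 itself is controlled largely by translation, and the arrays measured only transcripts.

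The check of the targeted genes came out along the labels. Mapkapk2, which encodes MK2, was lower than in wt by 3.35 (log2) in LPS-treated MK2-/- BMDM and by 3.95 in LPS-treated MK2/3-/- BMDM. Mapkapk3, which encodes MK3, was lower than in wt by 4.13 in LPS-treated MK2/3-/- BMDM, with a difference of 0.24 in MK2-/- BMDM that did not pass the test. The percentage of probes above background ran from 61.0 to 82.7 over the 22 arrays. Spots flagged by the scanner software numbered 2927 on the array of LPS-treated MK2-/- replicate 3 and 115 to 261 on the others. On 2 arrays, replicate 3 of both MK2-/- groups, the mean log2 signal of 4 Y-linked genes was 2.08 and 2.33, against 6.85 to 8.82 on the other 20, which goes against the label male for that pair. All arrays of a genotype lay on 1 slide, so genotype and slide cannot be told apart, whereas LPS and medium were compared within a slide.

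All 6 macrophage markers on the array were well above background on every array. The stromal (connective tissue) markers Col1a1, Col1a2 and Col3a1 were also above background on every array, Dcn on 19 and Pdgfra on 2, and their summed signal ran from 3080 to 99101 in medium-treated wt, from 11434 to 62659 in LPS-treated wt, from 1484 to 25655 and from 1581 to 19329 in medium- and LPS-treated MK2-/-, and from 679 to 45797 and from 1248 to 31015 in medium- and LPS-treated MK2/3-/- BMDM. Markers of other blood cells were uneven. Of the granulocyte precursor markers, Elane (log2 signals of 10.32 to 12.53) and Ctsg (5.27 to 8.10) were above background on all 22 arrays, Mpo (3.33 to 6.54) on 21, Ngp on 19 and Prtn3 on 11. Of the T cell markers, Cd3e was above background on all 22 (9.74 to 12.25), Cd3d on 10 and Cd3g on 2. In cultures of mixed cells, fewer cells of a type and less RNA per cell cannot be told apart.

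The sequences below show promoter stretches of the 3 members whose promoter held either of a pair of motifs of the ATF and C/EBP factors. They come from RefSeq (GRCm38.p6), in the direction of the gene, and end at or before the last base ahead of the transcription start. All 10 members had at least 1 promoter of 250 bases before the start, 12 promoters in all. TGATGNAA is the composite element that C/EBP and ATF factors share, and TGACGTCA is the cyclic AMP response element. Both strands were searched, and no 2 of the matches in the members overlapped. Capitals mark the match, which for Chac1 lies on the reverse strand and reads as the reverse complement.
Asns promoter, chr6:7693210-7693252, minus strand: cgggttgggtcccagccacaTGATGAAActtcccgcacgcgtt
Chac1 promoter, chr2:119351029-119351076, plus strand: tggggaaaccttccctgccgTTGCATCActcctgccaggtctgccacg
Ppp1r15a promoter, chr7:45526269-45526300, minus strand: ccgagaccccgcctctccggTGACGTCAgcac

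TGATGNAA was present in the promoters of 2 of the 10 members, Asns and Chac1. That was 2 of the members' 12 promoters, beside 3.45% of all 32851 promoters of this length. TGACGTCA was present in the promoter of 1 member, Ppp1r15a, which was 1 of the 12 promoters, and in 1.55% of all promoters. The match began 23 bases before the start in Asns, 193 bases in Chac1 and 12 bases in Ppp1r15a. The other 7 members did not hold these letters in this window. CCAAT, a general promoter box also searched on both strands, was present in 6 of the 10 members. That was 6 of their 12 promoters, beside 33.8% of all promoters.

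Values below are quantile-normalised log2 signals, where 1 unit is a doubling, and differences are tested with limma (adjusted p by Benjamini-Hochberg over all 22379 genes, called below 0.05). The plot of signals by array shows each array of the 10 members.

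**Figure D1:**
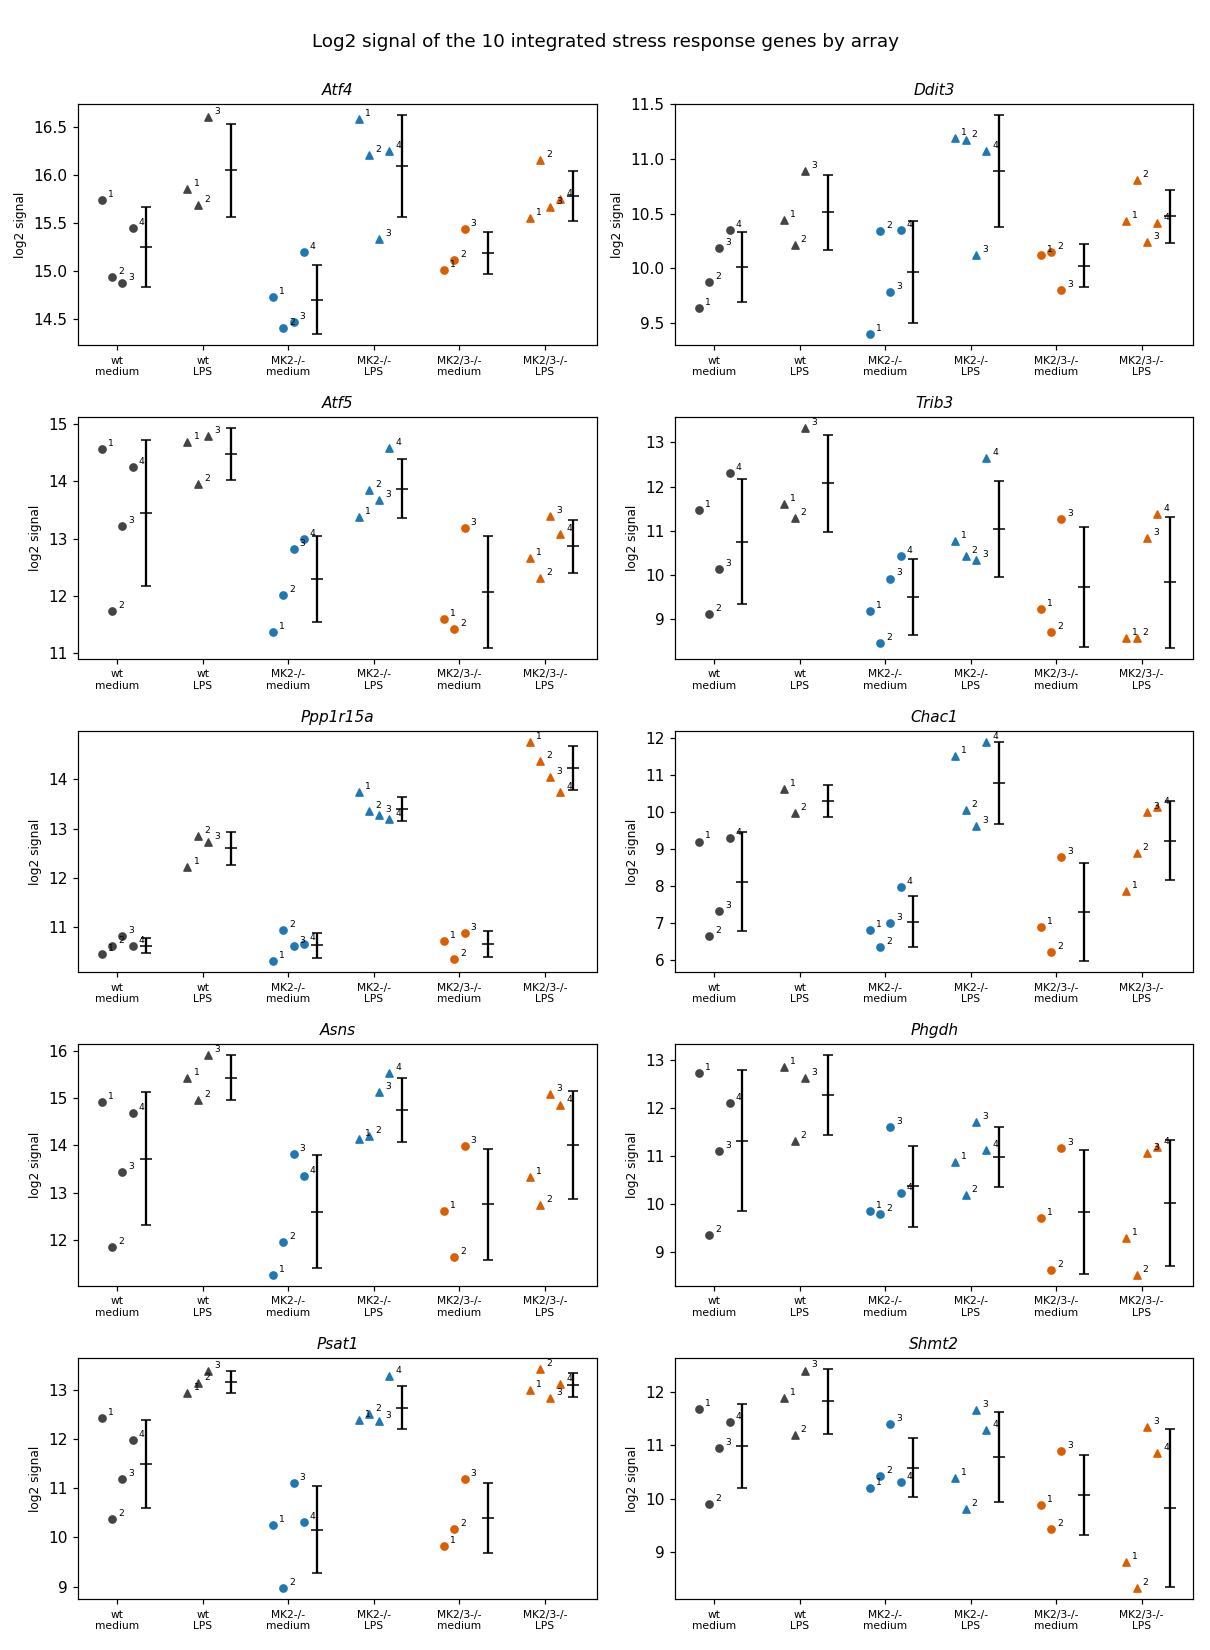
Log2 signal (y axis) of each of the 10 genes in the 6 groups (x axis). Circles are medium-treated and triangles LPS-treated arrays, numbered by replicate, and black bars give the group mean and SD. Ppp1r15a sits near 10.6 in medium in all genotypes and rises in steps from wt to MK2/3-/- under LPS, while Asns, Phgdh, Shmt2 and Trib3 scatter widely within groups.

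Ppp1r15a, the member with the most regular values across arrays, encodes GADD34, the subunit that directs a phosphatase to eIF2 and so ends the response. In medium its log2 signal was 10.46, 10.62, 10.82 and 10.62 in wt. In MK2-/- it was 10.32, 10.94, 10.62 and 10.68, and in MK2/3-/- it was 10.73, 10.37 and 10.89. The 3 genotypes overlapped, with group means of 10.63, 10.64 and 10.66. Under LPS the signals were 12.23, 12.85 and 12.73 in wt. They were 13.74, 13.36, 13.28 and 13.21 in MK2-/- and 14.76, 14.38, 14.05 and 13.74 in MK2/3-/- BMDM. Every LPS-treated array lay above every medium-treated array, every array of both knockouts lay above every wt array, and the ranges of the knockouts met only at their edge.

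LPS raised Ppp1r15a by 1.97 (SE 0.23, adjusted p = 1.59e-06) in wt, 2.76 (SE 0.22) in MK2-/- and 3.57 (SE 0.23) in MK2/3-/- BMDM, that is 3.92-fold, 6.77-fold and 11.9-fold. Under LPS it was higher than in wt by 0.80 in MK2-/- (SE 0.23, adjusted p = 0.0349) and by 1.63 in MK2/3-/- (SE 0.23, adjusted p = 1.47e-04), and higher in MK2/3-/- than in MK2-/- by 0.83 (SE 0.22, adjusted p = 0.0152). Its LPS response was larger in MK2/3-/- than in wt by 1.60 (SE 0.33, adjusted p = 0.0373). That last call was lost in 16 of 35 alternative settings, 13 of them with 1 array left out, although the value kept between 1.41 and 1.76. The call of MK2-/- against wt was lost in 9 of 37, including without the arrays of low Y-linked signal (0.83, adjusted p = 0.0517). The call of MK2/3-/- against wt was lost in 1 of 37, the methods' t-test with adjustment.

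The plot of LPS responses gives all members side by side. In wt BMDM, 3 of the 10 members were called and all 3 rose (Atf4, Ppp1r15a and Psat1), where 41.8% of all genes were called and 18.6% rose. In MK2-/- BMDM 7 were called and all rose, against 44.4% of all genes called and 17.7% that rose. In MK2/3-/- BMDM 3 rose (Ppp1r15a, Chac1 and Psat1), against 47.8% called and 20.3% that rose. The median log2 response over the 10 members was 1.17 in wt, 1.56 in MK2-/- and 0.69 in MK2/3-/- BMDM, beside medians of all genes of -0.04, -0.00 and 0.02. Medium-treated wt replicate 2 had no LPS-treated wt array with the same letter in its array name. Among wt arrays that shared a letter, LPS minus medium stayed below the fitted wt value for Asns, Atf5, Trib3 and Phgdh. The ranges were 0.50 to 1.53, 0.12 to 0.74, 0.13 to 1.17 and 0.13 to 0.53. For the other members the fitted wt value lay within the range of these arrays. No member fell, whereas 23.2%, 26.7% and 27.5% of all genes fell. The genotypes' responses were not shown to differ for any member except Ppp1r15a: called differences of the response numbered 0 of 10 for MK2-/- against wt, where 0% of all genes passed, and 0 of 10 for MK2/3-/- against MK2-/-, where 0.0536% passed. At an unadjusted p under 0.05 limma gave 1 member in each, again Ppp1r15a, against 7.3% and 8.62% of all genes. For MK2/3-/- against wt, 1 of 10 passed, against 0.652% of all genes.

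**Figure D2:**
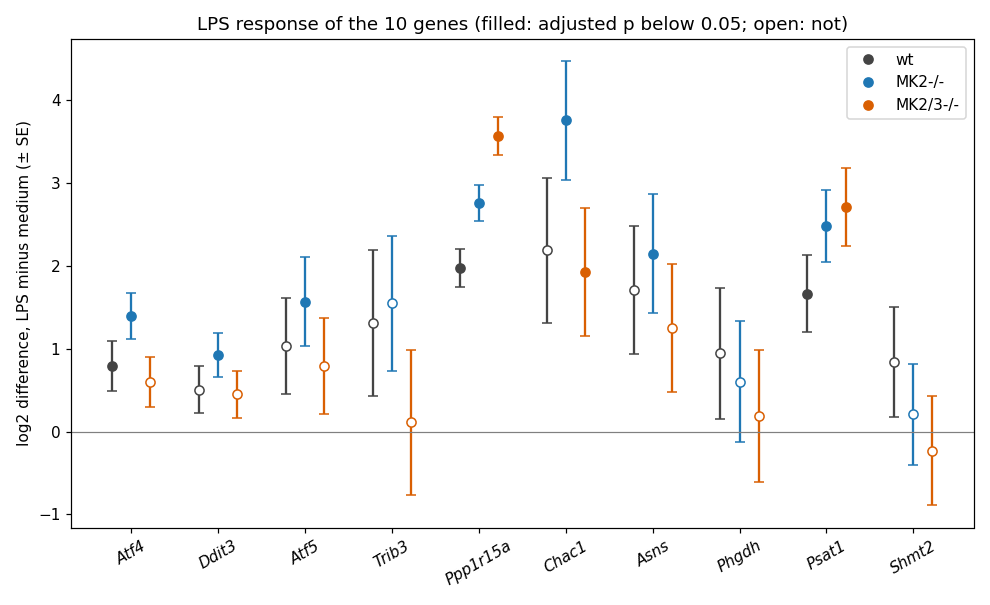
Log2 difference between LPS and medium (y axis, mean ± SE) for each gene (x axis) in wt, MK2-/- and MK2/3-/- BMDM. Filled points have an adjusted p below 0.05. Ppp1r15a and Psat1 are filled in all 3 genotypes, while Trib3, Phgdh and Shmt2 are open in all.

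Among the transcription factors, Atf4, the central factor of the pathway, was bright in every group. Its brighter feature gave 15.75, 14.94, 14.88 and 15.45 in medium-treated and 15.86, 15.69 and 16.60 in LPS-treated wt BMDM. In MK2-/- the signals went from 14.73, 14.41, 14.47 and 15.20 to 16.59, 16.21, 15.33 and 16.25, without overlap. The MK2/3-/- signals went from 15.01, 15.12 and 15.43 to 15.55, 16.16, 15.67 and 15.75. The rise was 0.79 in wt (adjusted p = 0.0408), 1.39 in MK2-/- (adjusted p = 3.80e-04) and 0.59 in MK2/3-/-, which was not called (adjusted p = 0.115). Without LPS-treated wt replicate 3 the wt value was 0.52 (adjusted p = 0.237), and it also lost its call without medium-treated wt replicate 2 or 3. The dimmer Atf4 feature rose in all 3 genotypes, by 1.58 in wt (adjusted p = 3.65e-05), 1.85 in MK2-/- and 1.80 in MK2/3-/- BMDM (adjusted p = 5.01e-06), so the features disagreed in size and, for MK2/3-/-, in call.

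Ddit3 encodes CHOP, a factor known for promoting cell death after lasting stress. Its log2 signal was 9.64 to 10.35 in medium-treated and 10.21 to 10.89 in LPS-treated wt BMDM, which overlapped (0.50, adjusted p = 0.169). In MK2-/- the signals were 9.40, 10.34, 9.78 and 10.35 in medium and 11.19, 11.17, 10.12 and 11.07 with LPS. The rise of 0.92 passed the test (SE 0.26, adjusted p = 0.00728). LPS-treated replicate 3, the array with many flagged spots and with low Y-linked signal, lay far under the others. The MK2/3-/- difference was 0.45 (adjusted p = 0.209).

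Atf5 encodes a sister factor of ATF4 whose mRNA is translated in a similar way. It rose with LPS in MK2-/- BMDM by 1.57 (SE 0.54, adjusted p = 0.0225), from signals of 11.37 to 12.99 to signals of 13.38 to 14.58. The call was lost without LPS-treated replicate 4 or without medium-treated replicate 1 or 2 of that genotype, with values of 1.26 to 1.47. In wt the medium-treated arrays spread from 11.73 to 14.56 around the LPS-treated arrays at 13.95 to 14.78, and the difference of 1.03 was not called. With 1 array left out the wt value ran from 0.46 to 1.41. The MK2/3-/- difference of 0.79 was not called either.

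Trib3, a pseudokinase that ATF4 and CHOP induce and that holds both in check, passed in no genotype. Its signals in wt were 11.47, 9.12, 10.13 and 12.31 in medium and 11.60, 11.30 and 13.32 with LPS. In MK2/3-/- they were 9.22, 8.71 and 11.26 in medium and 8.58, 8.57, 10.84 and 11.38 with LPS. The differences were 1.31 (SE 0.88) in wt, 1.55 (SE 0.81) in MK2-/- and 0.11 (SE 0.88) in MK2/3-/- BMDM, and in each genotype the ranges of LPS and medium overlapped. With 1 array left out the wt value ran from 0.69 to 1.83.

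Chac1, an enzyme that breaks down glutathione, showed the largest fold of the members. In MK2-/- BMDM its signals went from 6.79, 6.34, 7.0 and 7.97 to 11.53, 10.05, 9.62 and 11.91, without overlap. That was a rise of 3.75 (SE 0.72, adjusted p = 2.81e-04), or 13.5-fold. In MK2/3-/- they went from 6.90, 6.21 and 8.79 to 7.87, 8.90, 10.00 and 10.15, a rise of 1.93 (adjusted p = 0.0483) that was lost in 22 of 37 alternatives, and in 13 of 22 settings that left 1 array out. In wt the medium signals were 9.20, 6.63, 7.33 and 9.31. The spot of LPS-treated wt replicate 3 was flagged and left out, which left 10.62 and 9.99 and a difference of 2.19 that just missed (adjusted p = 0.0541). With flagged spots kept it was 2.81 (adjusted p = 0.00870), with a replicate block by the letter in the array names 2.17 (adjusted p = 0.0348), and 11 of 37 alternatives called it.

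The amino acid genes were more uneven. Asns, which makes asparagine, rose in MK2-/- BMDM from 11.27, 11.96, 13.83 and 13.35 to 14.14, 14.20, 15.12 and 15.53, without overlap. That was 2.15 (SE 0.72, adjusted p = 0.0197), and without medium-treated MK2-/- replicate 1 it was 1.70 (adjusted p = 0.0787), with the call also lost without medium-treated replicate 2 or LPS-treated replicate 4. In wt the signals went from 14.92, 11.85, 13.43 and 14.68 to 15.41, 14.96 and 15.91, a difference of 1.71 that was not called (adjusted p = 0.0855). For MK2/3-/- the difference was 1.25 (adjusted p = 0.201).

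Psat1, the aminotransferase of serine synthesis, rose in all genotypes and in no case did LPS and medium overlap. In wt its signals went from 12.43, 10.37, 11.20 and 11.98 to 12.94, 13.16 and 13.39. In MK2-/- they went from 10.25, 8.97, 11.11 and 10.32 to 12.39, 12.52, 12.38 and 13.29, and in MK2/3-/- from 9.82, 10.16 and 11.20 to 13.01, 13.44, 12.85 and 13.12. The rises were 1.66 (SE 0.47, adjusted p = 0.00781), 2.48 (SE 0.44) and 2.71 (SE 0.47, adjusted p = 8.37e-05). Its second feature rose by 1.62, 1.67 and 2.32. With LPS the level differed between genotypes by at most 0.51 on the brighter feature, and none of those differences passed.

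Phgdh, the first enzyme of serine synthesis, and Shmt2, the mitochondrial enzyme that takes serine into one-carbon metabolism, were not called in any LPS response. Their differences were 0.94, 0.60 and 0.19 for Phgdh and 0.84, 0.21 and -0.23 for Shmt2 in wt, MK2-/- and MK2/3-/- BMDM. With 1 array left out the wt values ran from 0.29 to 1.42 for Phgdh and from 0.47 to 1.16 for Shmt2. All groups overlapped between LPS and medium. Within serine synthesis, Psat1 had a called rise and Phgdh had none, and the difference between both genes was not tested.

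Both enzymes differed between genotypes instead. Under LPS, Phgdh gave 12.85, 11.31 and 12.62 in wt and 9.30, 8.53, 11.06 and 11.18 in MK2/3-/- BMDM, lower by 2.24 (SE 0.79, adjusted p = 0.0471). Its second feature was lower by 2.36 (adjusted p = 0.0426). Shmt2 gave 11.89, 11.19 and 12.41 in wt and 8.82, 8.32, 11.34 and 10.85 in MK2/3-/-, lower by 2.00 (SE 0.66, adjusted p = 0.0346). In both genes MK2/3-/- replicates 1 and 2 lay far under replicates 3 and 4. Without replicate 2 the difference of Phgdh was -1.75 (adjusted p = 0.138) and that of Shmt2 -1.49 (adjusted p = 0.110). The Phgdh call was lost in 18 of 37 alternatives and the Shmt2 call in 7, including without LPS-treated wt replicate 1 or 3 for both. The log2 summed stromal signal of these MK2/3-/- arrays was 10.29, 10.67, 13.10 and 14.92, and that of the wt arrays 15.94, 13.48 and 14.39. The part of stromal cells in this difference was not tested.

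Counted over the members, MK2/3-/- against wt under LPS gave 1 higher and 2 lower, where 23.7% of all genes were called, 9.41% higher and 14.3% lower. Atf5 (-1.61, adjusted p = 0.0505) and Trib3 (-2.23, adjusted p = 0.0729) missed the threshold. For MK2-/- against wt under LPS 1 of 10 was called, against 11.6% of all genes (4.5% higher, 7.11% lower). For MK2/3-/- against MK2-/- under LPS 1 of 10 was called, against 13.8% (7.73% higher, 6.04% lower). In medium no member was called in any genotype comparison, against 8.58% of all genes for MK2-/- against wt, 1.95% for MK2/3-/- against wt and 2.82% for MK2/3-/- against MK2-/-. The median over the members was -1.02 and -0.94 for the knockouts against wt in medium. At an unadjusted p under 0.05 limma gave 2 members in each of both comparisons, Atf5 and Psat1, against 26% and 17.1% of all genes, and 0 for MK2/3-/- against MK2-/-, against 15%, while the methods' t-test gave 0 in all 3.

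The members varied together between arrays of the same group. The plot of within-group correlations sets each array's deviation from its group mean side by side for all pairs. Pearson's r over the arrays was 0.93 for Atf5 and Asns, 0.92 for Asns and Phgdh, 0.91 for Phgdh and Shmt2 and 0.90 for Trib3 and Chac1, over 22 arrays, or 21 where Chac1 was involved. Ppp1r15a stood apart, with r of -0.38 to 0.33 against the other members, and Ddit3 correlated with Atf4 at 0.49 but with Asns at -0.10. The summed stromal signal followed the same arrays, with r of 0.83 for Atf5, 0.82 for Asns, Trib3 and Chac1, 0.79 for Phgdh, 0.71 for Shmt2 and 0.64 for Psat1, against 0.34 for Atf4, -0.17 for Ddit3 and -0.39 for Ppp1r15a. These are descriptions of points that share arrays and cultures, and the part of stromal cells in them was not tested.

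**Figure D3:**
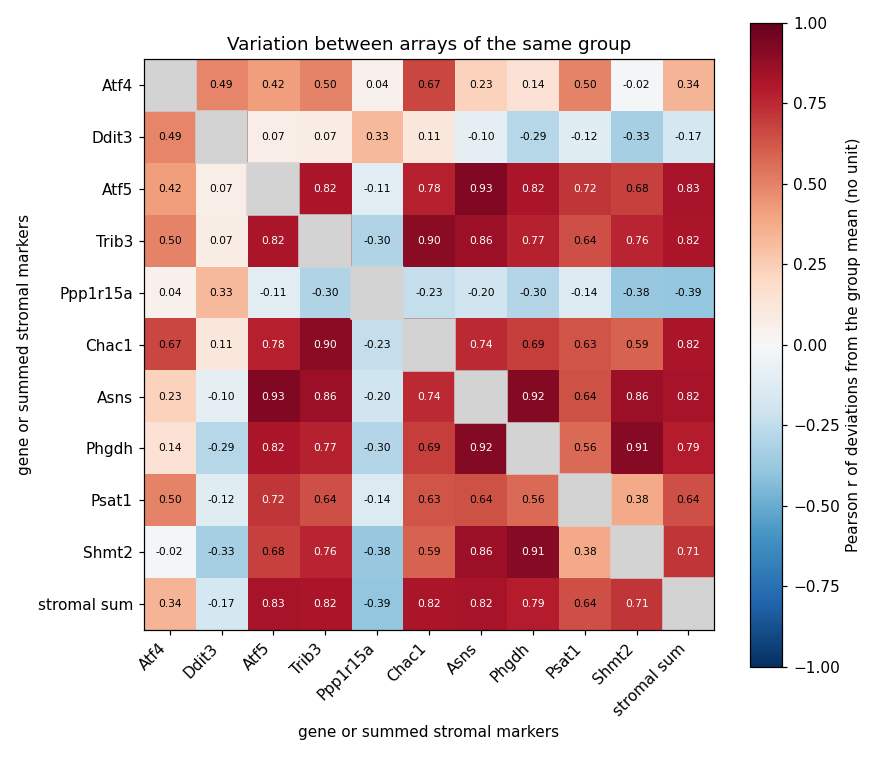
Pearson r (colour and printed value, no unit) between the deviations of the array values from their group means, for the 10 genes and the log2 summed signal of 5 stromal markers on both axes. Atf5, Trib3, Chac1, Asns, Phgdh, Psat1 and Shmt2 have r of 0.64 to 0.83 with the stromal sum, while Atf4 has 0.34, Ddit3 -0.17 and Ppp1r15a -0.39, and Atf4 has 0.67 with Chac1.

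The low and high arrays were largely the same. Averaged over Atf5, Trib3, Chac1, Asns, Phgdh, Psat1 and Shmt2, a set chosen after their values were seen, medium-treated wt replicate 2 lay 1.56 under its group mean and replicates 1 and 4 lay 1.02 and 0.89 above. In MK2/3-/- BMDM, replicates 1 and 2 lay under the mean in both treatments, by 0.34 and 0.85 in medium and by 0.76 and 0.87 with LPS, and the rest above.

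For 5 members, the genes whose signal followed them most closely over the arrays were looked up among the 18371 tested genes that had a symbol. For Asns they were Aars (r = 0.96), Cars (0.94) and Atf5 (0.94). For Chac1 they were Slc7a1, Cars and Tnnt2 (0.93, 0.92 and 0.92), and for Trib3 Cth, Slc6a9 and Aldh18a1 (0.91, 0.88 and 0.88). For Atf4 they were Bzw1, Syncrip and Il17rd (0.91, 0.89 and 0.88), and for Ddit3 Zfp639, Crtc2 and Mdk (0.86, 0.81 and 0.81).

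Of the genes upstream, all 8 listed eIF2 kinases and regulators passed the test in each genotype, 3 rising and 5 falling. Of all genes, 18.6%, 17.7% and 20.3% rose and 23.2%, 26.7% and 27.5% fell in wt, MK2-/- and MK2/3-/- BMDM. The same regulators moved the same way in all 3 genotypes. The 3 that rose were Eif2ak2, which encodes the RNA-sensing kinase PKR, Nck1 and Ppp1r15b, named after their values were seen. Eif2ak2 rose by 3.58 in wt, 3.87 in MK2-/- and 3.69 in MK2/3-/- BMDM. Ppp1r15b, the constitutive counterpart of Ppp1r15a that also directs the phosphatase to eIF2, rose by 3.41, 3.72 and 3.88, and its difference of -0.19 between LPS-treated MK2/3-/- and wt was not called. Eif2ak3, which encodes the endoplasmic reticulum kinase PERK, fell by 4.08 in wt, 4.01 in MK2-/- and 5.99 in MK2/3-/- BMDM, where its probe was above background on 1 of 4 LPS-treated arrays, so the size of that last fall, and of the called difference between both knockouts under LPS, is not settled. Eif2ak4, which encodes the amino acid-sensing kinase GCN2, fell by 2.38, 3.27 and 3.46. Dnajc3, Eif2ak1 and Impact were the others that fell.

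Over all 7 lists of pathway genes, those regulators included, 89 genes were measured, of which 21 rose and 13 fell in wt, 27 and 17 in MK2-/- and 19 and 24 in MK2/3-/- BMDM. That is 38.2%, 49.4% and 48.3% called, close to the 41.8%, 44.4% and 47.8% of all genes given above. By direction, 23.6%, 30.3% and 21.3% rose, beside 18.6%, 17.7% and 20.3% of all genes. The shares that fell were 14.6%, 19.1% and 27%, beside 23.2%, 26.7% and 27.5%. Among the partner factors, Batf rose by 5.65, 6.87 and 6.33 in the 3 genotypes, Batf2 by 4.89, 4.68 and 5.20, and the stress factor Nupr1 by 3.98, 4.57 and 5.19. Of 9 amino acid transporters, 4 rose and none fell in wt (44.4% called), 5 rose and 1 fell in MK2-/- (66.7%) and 4 rose and 1 fell in MK2/3-/- (55.6%). Slc7a11, the cystine importer, rose by 4.70 in wt, 5.88 in MK2-/- and 3.60 in MK2/3-/- and under LPS was lower in MK2/3-/- than in MK2-/- by 1.87. Jdp2, a repressor of this factor family, rose by 4.35, 4.79 and 3.96 in the 3 genotypes, and Map1lc3b, an autophagy gene, fell by 2.28, 2.09 and 2.01. Of 17 genes of the ATF6 and XBP1 branches of the endoplasmic reticulum stress response, 1 rose and 1 fell in wt, 4 and 2 in MK2-/-, and 1 and 6 in MK2/3-/- BMDM. That is 11.8%, 35.3% and 41.2% called, below the shares of all genes. By direction, 23.5% rose in MK2-/- against 17.7% of all genes, and 35.3% fell in MK2/3-/- against 27.5%. The other shares by direction were below those of all genes.

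Of the 7 lists, the tRNA-charging genes had the largest share of called differences between MK2/3-/- and wt under LPS. Under LPS, 10 of 13 aminoacyl-tRNA synthetases and the tRNA exporter Xpot were lower in MK2/3-/- than in wt and none was higher, with a median of -1.41 beside -0.03 over all genes, of which 14.3% were lower. Within groups, the 13 genes had r of 0.55 to 0.85 with the log2 summed stromal signal, which was 10.29 to 14.92 on these MK2/3-/- arrays and 13.48 to 15.94 on the wt arrays. The part of stromal cells in this difference was not tested. The count ran from 6 to 11 with 1 array left out, was 2 when only the groups compared entered the fit and 0 by the methods' t-test with adjustment. That t-test called 0.304% of all genes in this comparison. The shares of all genes in the fit of the groups compared and with 1 array left out are not given here. For MK2-/- against wt 0 of 13 passed, with a median of -0.78, and the difference between these counts was not tested. Xpot fell with LPS by 1.30 in wt, 1.54 in MK2-/- and 2.72 in MK2/3-/- BMDM. Of 22 other ATF4 targets and genes of serine, one-carbon and proline synthesis, 9 were lower in MK2/3-/- than in wt under LPS, again beside 14.3% of all genes, with a median of -1.21. Their r with the stromal signal ran from -0.26 to 0.93, and its part was not tested here either. Among probes above background on all arrays their count was 5, where 30.1% of all genes were called in either direction. List genes without such a probe leave that setting, so 5 need not be out of 22. The count was 2 in the fit of the groups compared and 4 to 10 with 1 array left out, again without those shares of all genes. By the adjusted t-test it was 0, again beside 0.304% of all genes. The widest values among the called genes were Vldlr (-3.52), Gpt2 (-3.11), an alanine aminotransferase, and Aldh18a1 (-2.81), which starts proline synthesis. Vldlr was above background on 1 of 4 LPS-treated MK2/3-/- arrays, and Gpt2 and Aldh18a1 on 3 of 4, so the sizes, and their order, are not settled.

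**Figure D4:**
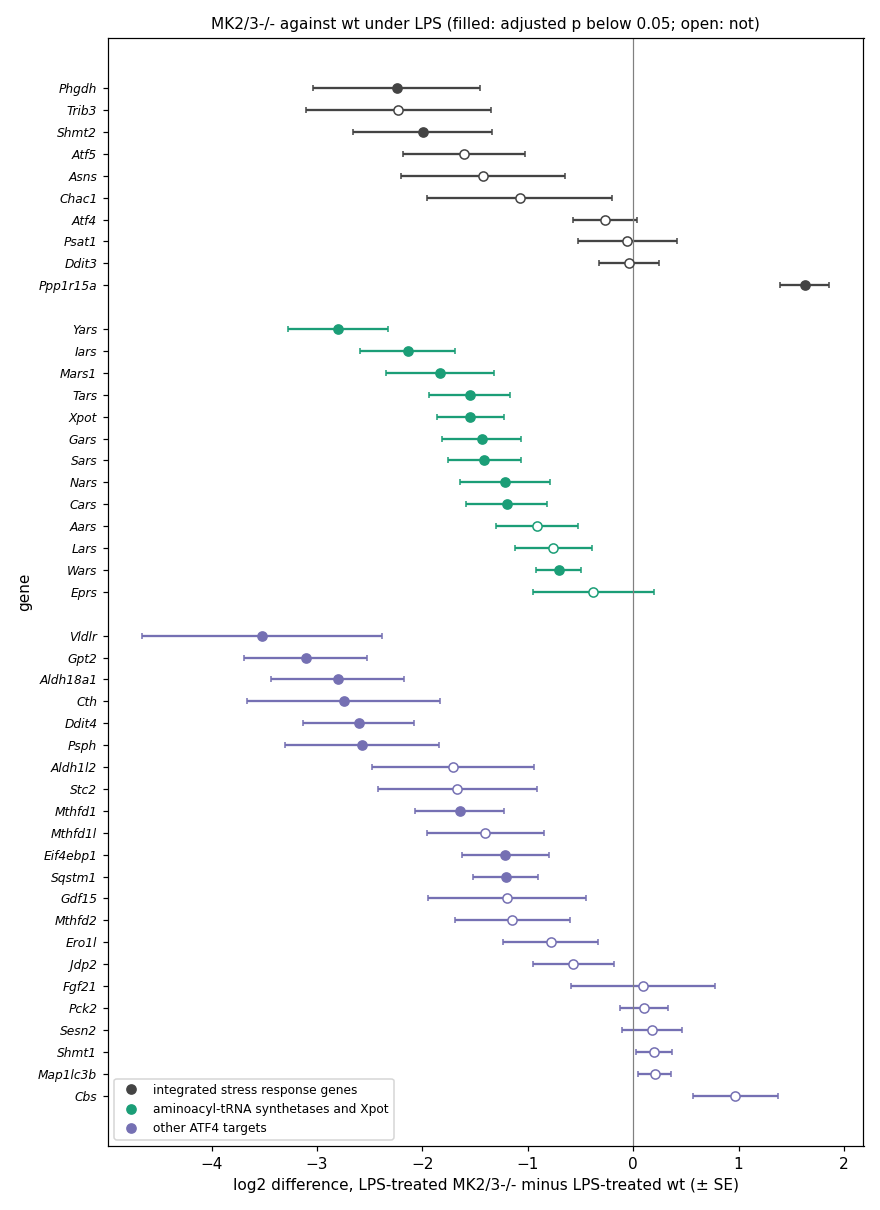
Log2 difference between LPS-treated MK2/3-/- and LPS-treated wt BMDM (x axis, mean ± SE) for the members and 2 further groups of genes (y axis). Filled points have an adjusted p below 0.05. All 13 tRNA-charging genes lie left of 0, 10 of them filled, and Ppp1r15a is the only filled gene right of 0.

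Between both knockouts under LPS, Ddit4, an inhibitor of the growth kinase mTORC1 that ATF4 induces, differed by -2.38 for MK2/3-/- minus MK2-/- (group means 13.12 in MK2-/- and 10.74 in MK2/3-/-). Between MK2-/- and wt under LPS the widest differences among called genes were Mthfd1 (-1.58) and Slc1a5 (-1.56), both lower, and Cbs (1.56), which was higher. In medium, the widest called differences of MK2-/- against wt were Wars (-0.72), Eif2s1 (-0.56) and Shmt1 (0.56).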

How the data were processed

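RNA of BMDM was labelled with Cy3 and hybridised to 1-colour Agilent mouse arrays, 1 per sample. The deposited scanner output held, per spot, a processed intensity from Feature Extraction 11.0.1.1. Log2 values that the authors deposited beside it, quantile normalised and centred per their methods, served as an alternative. Here, flagged spots were set to missing, spots of a probe averaged, and log2 processed intensities quantile normalised over 22 arrays. The 28098 probes kept had an NCBI accession and exceeded background clearly on 3 arrays or more. They were named through RefSeq genes of GRCm38.p6, and the brightest represented its gene. The array design is annotated on mm9, so no probe coordinates are given. limma 3.58.1 (R 4.3.3) was fitted to 6 group means, called at an adjusted p below 0.05, two-sided. The study's methods describe independent experiments. A recovery of known changes was tested on simulated data. The members and lists were chosen with earlier results of these data known. Pathway genes named were the 3 largest rises and falls per LPS response, the 3 largest called differences per genotype comparison, and the 3 closest neighbours of 5 members. The normexp background alternative, planned on mean signals, was run on the median signals of the scanner tables. Array number limits precision.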

Additional observations from a re-analysis of the deposited data

Results flagged for a closer look

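The difference of the LPS response of Ppp1r15a between MK2/3-/- and wt BMDM (1.60 on the log2 scale) passed a test of the difference itself. Among 40 groups of 4 arrays, 2 held an array far from the rest, about the number that chance gives at 1 in 20: Ddit3 in LPS-treated MK2-/- replicate 3 (log2 signal 10.12, nearest 11.07, gap of 0.886 of the group's range) and Psat1 in LPS-treated MK2-/- replicate 4 (13.29, nearest 12.52, gap of 0.843 of the range). Replicate 3 of LPS-treated MK2-/- is also the array with 2927 flagged spots, and its Y-linked signal was low. The cause of its low Ddit3 value was not tested.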

How the results depend on the processing

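Of 36 single values recomputed under the alternatives (1330 values), 1205 kept direction and call, 93 lost their call, 18 gained one and 14 changed sign, and 15 of the 36 kept both throughout. The sign changes were all in uncalled values near 0, for Trib3, Phgdh and Shmt2: with array weights Shmt2 in MK2-/- was -0.16, and Trib3 and Phgdh in MK2/3-/- were -0.32 and -0.17. With 1 array left out, Shmt2 in MK2-/- ran from -0.088 to 0.53, and in MK2/3-/- BMDM Trib3 ran from -0.40 to 0.88, Phgdh from -0.42 to 0.86 and Shmt2 from -0.74 to 0.27. The cause was not tested.

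75th percentile scaling moved the median of all genes by 0.29, 0.26 and 0.22 in the LPS responses of wt, MK2-/- and MK2/3-/-. For MK2/3-/- against wt under LPS it moved by 0.13. With that scaling 6 members were called in the wt response (share of all genes in brackets, 46.4%). In MK2/3-/- against wt under LPS 5 were called (36.6%), 1 higher and 4 lower. In MK2-/- against wt, 0 were called under LPS (21.5%) and 1 in medium (21.9%). In the difference of the response between MK2/3-/- and wt 0 were called (0.0894%). With only the groups compared in the fit, 0 were called in MK2-/- against wt (7.52%) and MK2/3-/- against MK2-/- (5.81%) under LPS and in that difference (0.0223%). By the methods' t-test with adjustment, 1 was called in the wt response (39.4%). Under LPS that test gave 0 in MK2-/- against wt (2.68%), MK2/3-/- against wt (0.304%) and MK2/3-/- against MK2-/- (3.26%). Unadjusted, the t-test gave 2 members in MK2/3-/- against MK2-/- under LPS (19.9%). The t-test cannot give a difference of responses. A 2-fold minimum left 0 in MK2-/- against wt (8.22%) and MK2/3-/- against MK2-/- (9.4%) under LPS. Without both arrays of low Y-linked signal, chosen after seeing the data, 0 were called in MK2-/- against wt under LPS (10.3%). That fit called 1 in medium (6.19%) and 0 in the difference of the response between MK2/3-/- and wt (0.219%).

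With 1 array left out, the LPS response of wt had 2 to 5 members called, MK2-/- 5 to 7 and MK2/3-/- 2 to 3. Under LPS, MK2-/- against wt had 0 to 1, MK2/3-/- against wt 1 to 4 and MK2/3-/- against MK2-/- 1 to 1. MK2-/- against wt in medium had 0 to 2, and the difference of the response between MK2/3-/- and wt 0 to 1. The other 4 counts stayed at 0. The share of all genes moved too, from 41.8% to 33.6% in wt without LPS-treated replicate 2. Other shares are not given.

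The replicate numbers and letters were not taken as pairs, since 7 of 10 same-letter pairs of arrays correlated above 0.1 and the others did not (-0.09 to 0.42), against 5 of 30 pairs of unlike letters. The letters come from the array names, and the labels do not say that a letter marks 1 animal. Both arrays of low Y-linked signal carried the same letter, c. If a letter marks 1 culture, the unpaired fit counts the spread between cultures as error. An uncalled LPS response is in either case not shown to be absent. Within the 10 same-letter pairs the log2 summed stromal signal differed between LPS and medium by -0.66 to 0.88. Asns, Atf4, Ddit3, Ppp1r15a and Psat1 were higher with LPS in 10 of 10 pairs, Chac1 in 9 of 9, Atf5 in 9 of 10, Phgdh and Trib3 in 8 of 10 and Shmt2 in 6 of 10. By genotype, Phgdh and Trib3 were each higher in 3 of 3 wt, 4 of 4 MK2-/- and 1 of 3 MK2/3-/- pairs. Shmt2 was higher in 3 of 3, 3 of 4 and 0 of 3. With the replicate block by letter Chac1 in wt was 2.17 (adjusted p = 0.0348) and by number 2.21, both now called. No count of members called moved by over 1.5 times.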
